A study of Oryctolagus cuniculus with 4 samples.

Results

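F3 (ENSOCUG00000004834) and PLAU (ENSOCUG00000003155), 2 genes of clotting and extracellular proteolysis, were followed across the cells of the rabbit bladder wall. Both were taken by symbol, 1 row each, from the 18475 genes of the count tables. The pair was selected on its expression, as leading genes of 1 group of epithelial cells in earlier work on these tables, so its high level in some epithelial cells is given below as a description. Droplet-based single-cell RNA sequencing had been performed on 4 samples from adult New Zealand rabbits: 2 normal bladders (Normal_1 and Normal_2) and 2 bladders with a focal resection of the full mucosa, taken 10 days after surgery (Injury_1 and Injury_2). The tissue was digested with collagenase at 37 °C, no sorting step is described, and no drug or genetic change separates the groups. The injured samples were taken, per the paper, when new epithelium had just closed over the wound.

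F3 encodes tissue factor, a transmembrane protein that binds coagulation factor VII and starts the extrinsic pathway of blood clotting. Epithelia and the cells around vessels are known to carry it, which keeps it apart from the plasma until a vessel or a surface is broken. PLAU encodes urokinase, a secreted serine protease that cuts plasminogen into plasmin. Plasmin dissolves fibrin and cleaves matrix proteins, and urokinase is named for its presence in urine.

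The 4 libraries held 5823 to 6884 cell barcodes and 28745017 to 47881609 UMIs (unique molecular identifiers, each standing for 1 captured transcript). Leaving out barcodes under 500 UMIs, under 200 genes or over 15% mitochondrial UMIs kept 4308 cells of Normal_1, 6027 of Normal_2, 6081 of Injury_1 and 5529 of Injury_2. Any 2 libraries shared 4 to 12 barcodes. In the 21945 kept cells F3 had 45913 UMIs and ranked 427 among 14954 genes with a UMI, and PLAU had 31000 UMIs and ranked 615. Clusters were found without F3 and PLAU and named from markers, giving 10 classes: 8882 fibroblast-like, 5465 endothelial-like, 2254 smooth muscle and pericyte-like, 1532 epithelial-like, 1195 macrophage-like, 1186 T cell-like, 446 neutrophil-like, 222 B cell-like, 117 glial-like and 106 mast cell-like cells. A further 540 cells stayed unnamed. Levels are the UMIs of a gene per 1000000 UMIs of all cells of a class in 1 library (CPM), so a level is a share of the RNA counted there. Levels are compared within a gene, between cells or samples, and never between F3 and PLAU.

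F3 was counted mainly in epithelial-like and fibroblast-like cells, and the balance between them differed between the libraries. Epithelial-like cells held 87.3% of the F3 UMIs of Normal_1 and 51.4% of those of Normal_2. In Injury_1 they held 15.8%, and in Injury_2 12.1%. Fibroblast-like cells held 10.4% and 44.2% of the F3 UMIs of the normal libraries and 64.3% and 73.8% of those of the injured libraries. Epithelial-like cells were 10.2% and 2.84% of the normal cells against 9.31% and 6.40% of the injured cells. Within each group of samples the library with more epithelial-like cells also had more of its F3 in them. Over all cells F3 stood at 434 CPM in both normal libraries and at 173 and 188 CPM in the injured ones, a log2 fold change of -1.28 (SE 0.22) that edgeR did not call (adjusted p = 0.158), where 1 of 10475 genes was called (0.00955%). In such a sum fewer cells of a type and less RNA per cell cannot be told apart. PLAU had 3 main sources. Endothelial-like cells held 48.0%, 35.9%, 25.1% and 37.4% of its UMIs in Normal_1, Normal_2, Injury_1 and Injury_2, epithelial-like cells 40.6%, 31.7%, 48.1% and 24.7%, and fibroblast-like cells 5.08%, 23.7%, 16.7% and 23.3%.

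**Figure D1:**
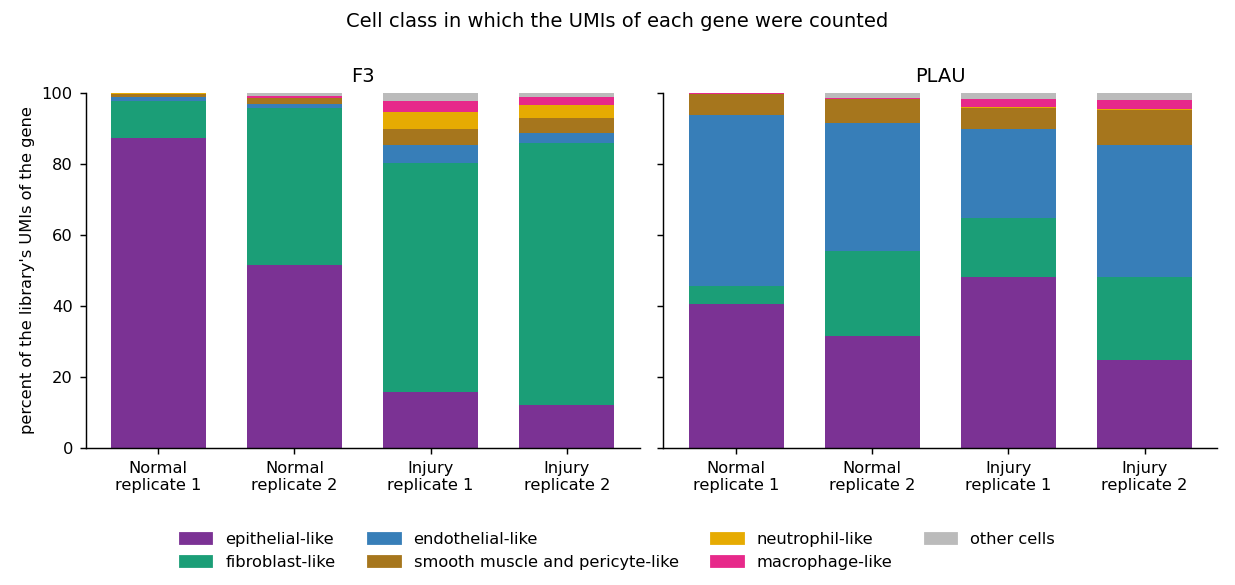
Stacked bars give, for each library, the percent of all F3 UMIs (left) and PLAU UMIs (right) counted in each cell class; grey is every other cell. The epithelial-like part of F3 is 87.3% and 51.4% in the normal libraries and 15.8% and 12.1% in the injured libraries, while that of PLAU lies between 24.7% and 48.1% with the groups overlapping.

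Among the classes F3 was highest in epithelial-like cells of normal bladder. Its level there was 1781 CPM in Normal_1 and 3253 CPM in Normal_2, against 168 CPM in Injury_1 and 177 CPM in Injury_2. Both normal libraries lay far above both injured libraries. Over the 4 libraries the mean was 1345 ± 1481 CPM (SD, n = 4), a spread larger than the mean. Fibroblast-like cells, the collagen-producing cells of the lamina propria, followed with 173 and 363 CPM in the normal libraries and 299.9 and 288 CPM in the injured ones, a mean of 281 ± 79.1 CPM (SD, n = 4). Neutrophil-like cells came next at 249.8 ± 118 CPM (SD, n = 4), and their range overlapped that of fibroblast-like cells. All 4 values of these 3 classes lay above all 4 values of the smooth muscle and pericyte-like class (89.9 ± 24.7 CPM, SD, n = 4). Below it, macrophage-like, glial-like and endothelial-like cells had means of 56.5, 35.9 and 28.8 CPM with overlapping ranges. Mast cell-like, T cell-like and B cell-like cells had means of 10.7, 8.69 and 4.17 CPM.

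Lymphocytes should lack F3, and their level is given as a low reference. Free RNA itself was not measured. In T cell-like cells F3 was 8.48 and 17.7 CPM in the normal libraries and 2.71 and 5.88 CPM in the injured libraries, from 3, 9, 8 and 10 UMIs. In Injury_2 a single cell held 4 of these UMIs. The 4 values stood in the same order over the libraries as the F3 level of epithelial-like cells. Fibroblast markers in T cell-like cells summed to 98.9 and 1731 CPM in normal and 836 and 680 CPM in injured libraries. The source of the F3 UMIs in T cell-like cells was not tested. Endothelial-like F3 of the normal libraries, at 12.2 and 19.4 CPM, lay close to this level, and the 3.21 CPM of macrophage-like cells in Normal_1 lay below it.

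The order of the classes was another one for PLAU. Epithelial-like cells again came first, with 425 and 850.4 CPM in the normal libraries and 685 and 309 CPM in the injured libraries, so that each group held 1 high and 1 low library (567 ± 246 CPM, SD, n = 4). Endothelial-like cells, the lining of vessels, followed with 268 and 240.5 CPM in normal and 317 and 427 CPM in injured bladder, and their range overlapped that of epithelial-like cells. Smooth muscle and pericyte-like cells held 179 and 174 CPM in normal and 179.6 and 190.2 CPM in injured bladder. The mean was 181 ± 6.79 CPM (SD, n = 4), and all 4 values lay below all 4 endothelial-like values. Fibroblast-like, glial-like and macrophage-like cells had means of 77.1, 62.9 and 41.5 CPM with overlapping ranges. Mast cell-like cells, with 18 to 44 cells in the 3 libraries used, ranged from 0 to 220.3 CPM. Neutrophil-like cells had 7.60 to 28.1 CPM, and T cell-like cells 1.97 to 13.5 CPM. B cell-like cells had PLAU in 1 of 3 libraries, at 3.89 CPM.

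**Figure D2:**
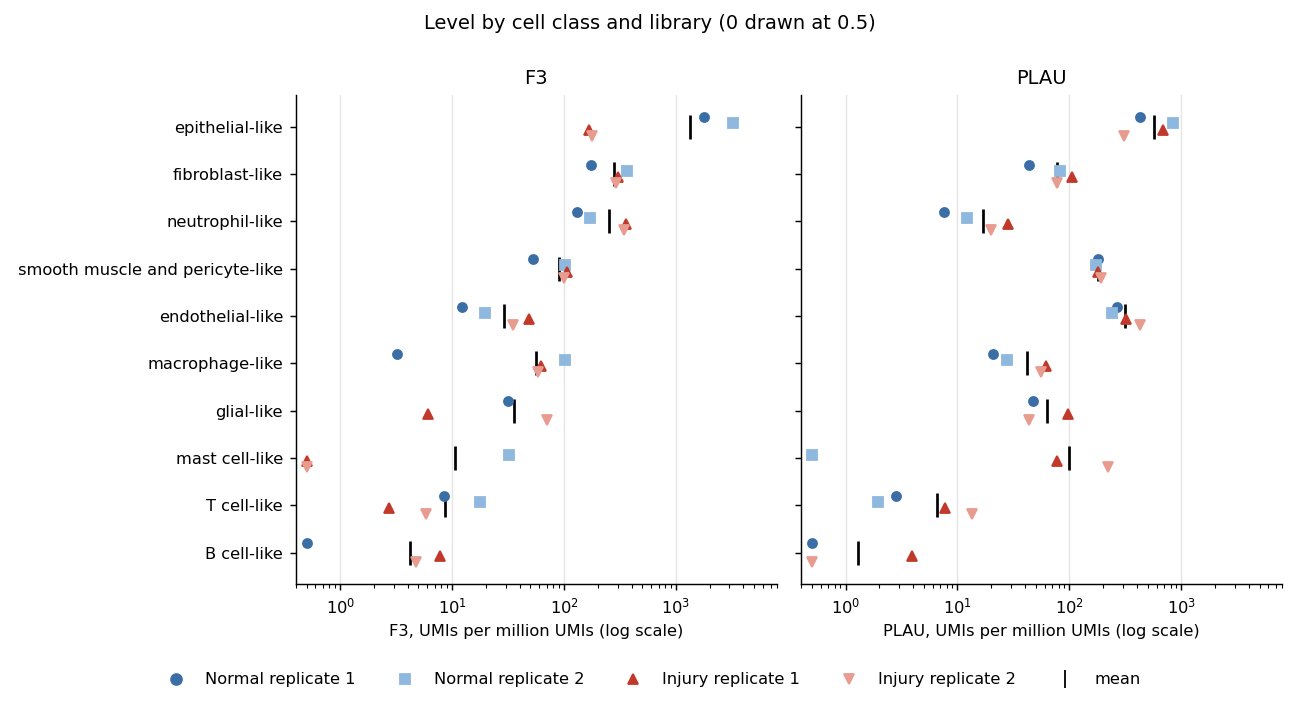
Each point is the level of F3 (left) or PLAU (right) in 1 cell class of 1 library, in CPM on a log scale, with the mean over libraries as a black bar; libraries with under 10 cells of a class are left out. For F3 the 2 normal epithelial-like values (1781 and 3253 CPM) stand above every other point, and for PLAU epithelial-like, endothelial-like and smooth muscle and pericyte-like cells are the 3 highest classes by mean.

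The comparison of injured with normal bladder asked whether either gene changed within a class 10 days after resection. Counts were summed per library and class and tested with edgeR's quasi-likelihood test across all genes, and a gene is said to be called, to have risen or to have fallen only at a Benjamini-Hochberg adjusted p under 0.05. F3 fell in epithelial-like cells. The log2 fold change was -4.16 (SE 0.47, 95% interval -5.30 to -3.02), which is 17.9-fold lower in injured bladder, with adjusted p = 0.0273. It was lower in 2 of 2 injured libraries than in either normal library, as were 15.1% of the 6640 genes with at least 50 UMIs there. In epithelial-like cells 9390 and 9893 F3 UMIs in normal stood against 1218 and 996 in injured libraries. Of 7046 genes tested in this class 117 were called (1.66%), 73 of them lower (1.04%), and F3 ranked 23 by p. Nothing in the labels says how the rabbits or preparations were otherwise matched. The p-value rests on a variance estimated from these 4 samples and moderated by edgeR over all genes tested. PLAU did not pass the test in the same cells: its log2 fold change was -0.68 (SE 0.52, 95% interval -1.96 to 0.59) with adjusted p = 0.505 in edgeR. The interval spans 0, and without Normal_2 the estimate was 0.09.

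Other cells did not give a call for either gene. In edgeR 0 genes were called among 8755 in fibroblast-like, 7572 in endothelial-like, 6894 in smooth muscle and pericyte-like, 5480 in macrophage-like and 2544 in neutrophil-like cells (0%), while 962, 518, 546, 772 and 169 genes had an unadjusted p under 0.05 and DESeq2 called 276, 60, 65, 66 and 1. F3 in endothelial-like cells had 48.7 and 34.9 CPM in injured against 12.2 and 19.4 CPM in normal libraries, without overlap. Of all genes with at least 50 UMIs in this class 24.2% were likewise higher in both injured libraries. The log2 fold change was 1.29 (SE 0.37) with adjusted p = 0.541. Leaving out 1 library at a time moved it from 0.92 to 1.82 with adjusted p from 0.087 to 1.000. PLAU in macrophage-like cells had 61.8 and 55.9 CPM in injured against 20.9 and 27.6 CPM in normal libraries, again without overlap (32.4% of genes were higher in both injured libraries there), and a log2 fold change of 1.16 (SE 0.28, adjusted p = 0.188). Neutrophil-like F3 had 358 and 344 CPM in injured against 129 and 169 CPM in normal libraries, which held only 25 and 30 such cells, and its log2 fold change was 1.19 (SE 0.35, adjusted p = 0.680). In fibroblast-like cells the log2 fold change was 0.23 for F3 and 0.62 for PLAU, with adjusted p of 0.895 and 0.659. In smooth muscle and pericyte-like cells it was 0.42 for F3 and 0.11 for PLAU (adjusted p 0.841 and 0.940). In T cell-like cells both genes were too low to be tested, and 2 of 4545 genes were called there (0.044%).

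Single normal libraries moved several of these values. Without Normal_2, the edgeR log2 fold change of F3 was 1.01 in smooth muscle and pericyte-like cells, against 0.42 with all 4 libraries. The lowest F3 level of that class, 53.1 CPM, was that of Normal_1. In macrophage-like cells the F3 log2 fold change was 4.20 without Normal_2. The only normal library was then Normal_1, where 2 of 111 macrophage-like cells had an F3 UMI. Macrophage-like F3 was 3.21 CPM in Normal_1 and 102 CPM in Normal_2, with the injured values of 62.5 and 58.3 CPM between them. With all 4 libraries its log2 fold change was 0.02 (SE 0.90). Fibroblast markers moved with that gap: their sum in macrophage-like cells was 758 CPM in Normal_1 and 5523 CPM in Normal_2, against 3007 and 2492 CPM in the injured libraries. Their part in the macrophage-like F3 values was not tested.

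**Figure D3:**
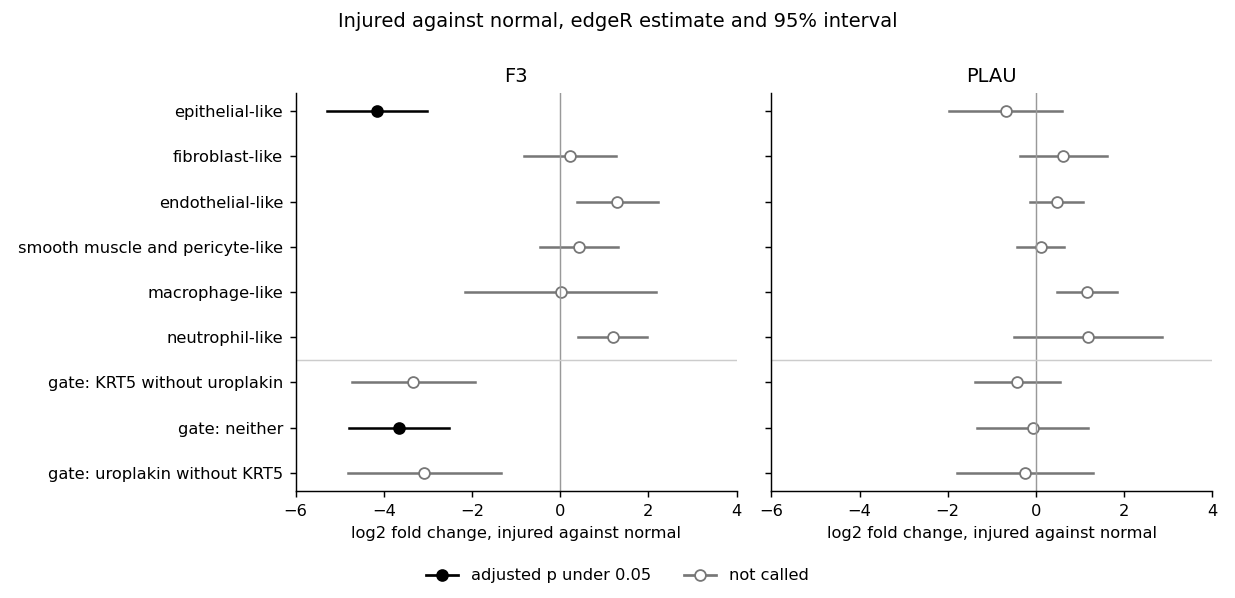
Points are edgeR log2 fold changes of injured against normal samples for F3 (left) and PLAU (right), lines their 95% intervals, and filled points have an adjusted p under 0.05; the upper 6 rows are cell classes and the lower 3 are groups of epithelial-like cells by KRT5 and uroplakin UMIs. F3 is at -4.16 in epithelial-like cells and between -3.66 and -3.08 in the 3 groups, while no PLAU estimate is called.

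The effect on F3 itself differed between classes of the same rabbits. In 1 fit over both classes with the sample as a block, the log2 fold change of F3 in epithelial-like cells lay 4.35 below that in fibroblast-like cells, as a difference of -4.35 (SE 0.34, edgeR adjusted p = 0.0069). Against endothelial-like cells the difference was -5.35 (SE 0.33, adjusted p = 0.0022). Against smooth muscle and pericyte-like cells it was -4.52 (SE 0.30, adjusted p = 0.0016), and F3 ranked 1 by p among 7698 genes there. The share of all genes called in these 3 tests was 1.39%, 0.464% and 2.12%. These tests used sums of the whole epithelial-like class, whose mix of KRT5 and uroplakin cells differed between the groups, as given below. The part of that mix in the differences was not tested. The difference for PLAU was -1.29 (SE 0.34, adjusted p = 0.113), -1.04 (SE 0.57, adjusted p = 0.461) and -0.70 (SE 0.50, adjusted p = 0.494), so that no difference between classes was shown for it.

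Each cell was thinned, as an expectation over all draws, to 1000 UMIs, which left out 25, 9, 17 and 8 epithelial-like cells of Normal_1, Normal_2, Injury_1 and Injury_2. The share of epithelial-like cells with an F3 UMI was then 43.0% and 65.3% in the normal libraries and 7.84% and 13.1% in the injured libraries. In T cell-like cells, which should lack F3, it was 1.29%, 1.66%, 0.382% and 0.558%. Without thinning the epithelial-like shares were 67.8% and 82.5% in normal and 32.9% and 56.8% in injured libraries at median depths of 12916, 19902, 11931.5 and 16315.5 UMIs, and those of T cell-like cells were 3.00%, 7.34%, 1.26% and 2.06% at 3339, 3927, 3301 and 3415.5 UMIs. PLAU was seen in 26.1% and 43.8% of thinned normal and in 36.1% and 20.3% of thinned injured epithelial-like cells. For F3 the difference between the group means was -43.6 percentage points with p = 0.333 in a two-sided exact permutation test, the smallest p that 2 against 2 samples allow.

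F3 UMIs were unevenly spread over single cells, with the higher concentration in the injured libraries, where the counts were also far lower. The mean cell had 21.3 and 57.9 F3 UMIs in normal and 2.15 and 2.81 in injured libraries. The shares below are without thinning and were not matched for level or for the mix of cells. The 10% of epithelial-like cells with the most F3 UMIs held 46.2% and 36.3% of the F3 UMIs of the normal libraries and 83.3% and 51.1% of those of the injured libraries. The highest single cell had 162 and 301 F3 UMIs in normal and 96 and 66 in injured bladder. The median cell had 2 and 32 UMIs in normal and 0 and 1 in injured bladder. For PLAU this concentration was 44.3% and 36.0% in normal and 45.5% and 52.0% in injured libraries.

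The urothelium is layered, with KRT5-bearing basal cells on the basement membrane, intermediate cells above them and uroplakin-bearing umbrella cells at the lumen. The paper reports moderate uroplakin expression, and also KRT5, in intermediate cells, so uroplakin cells here need not be umbrella cells. The mix of KRT5 and uroplakin cells differed between the groups. Cells with a KRT5 UMI and no uroplakin UMI were 32.9% and 33.9% of normal and 8.13% and 18.4% of injured epithelial-like cells, and cells with a uroplakin UMI and no KRT5 UMI were 27.0% and 14.6% of normal and 69.3% and 40.4% of injured ones. The comparison was therefore made within each group. In KRT5 cells without uroplakin F3 was 3214 and 4400.0 CPM in the normal libraries (145 and 58 cells) and 757 and 209 CPM in the injured libraries (46 and 65 cells). The log2 fold change was -3.34 (SE 0.58) and just missed the threshold with an edgeR adjusted p of 0.0557, where 45 of 4892 genes were called (0.92%). In cells with neither marker F3 was 1358 and 2824 CPM in normal and 205 and 202 CPM in injured libraries. It fell there, with a log2 fold change of -3.66 (SE 0.49, adjusted p = 0.0477) and 11 of 5085 genes called (0.216%), 5 of them lower (0.0983%). Without Injury_2 this call was lost at adjusted p = 0.0725. In uroplakin cells without KRT5 F3 was 289.5 and 1203 CPM in normal and 65.0 and 136 CPM in injured libraries, a log2 fold change of -3.08 (SE 0.75, adjusted p = 0.169) with 5 of 5517 genes called (0.0906%). F3 was thus lower in both injured libraries in each group. In the whole epithelial-like class 15.1% of genes with at least 50 UMIs were likewise lower in both. The share within these groups was not computed. From KRT5 cells to uroplakin cells the F3 level dropped in all 4 libraries.

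PLAU also dropped from KRT5 cells to uroplakin cells in all 4 libraries, without separating normal from injured samples. It was 589 and 1036 CPM in normal and 1003 and 536 CPM in injured KRT5 cells, 371 and 775 CPM against 998 and 373 CPM in cells with neither marker, and 227 and 545 CPM against 602 and 148 CPM in uroplakin cells. Log2 fold changes were -0.42, -0.07 and -0.24 with adjusted p of 0.570, 0.968 and 0.948 in edgeR. In every one of these groups Normal_2 and Injury_1 were the high libraries.

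A second round of clustering, again without F3 and PLAU among the variable genes, divided the epithelial-like cells into 10 sub-clusters, numbered from 0. Their levels are descriptions, since the genes were chosen for them. Sub-cluster 4 (205 cells), led by KRT5, the parathyroid hormone-like hormone gene PTHLH and the integrin gene ITGA2, had the highest mean F3 with 3736 and 4990.4 CPM in Normal_1 and Normal_2 and 613 and 234 CPM in Injury_1 and Injury_2. In Injury_2 sub-clusters 3 and 6 were higher (296 and 301 CPM). Sub-cluster 0 (312 cells) had 2634 and 4712 CPM in normal and 193 and 152 CPM in injured libraries. Among its 10 leading genes were F3, PLAU and the laminin genes LAMB3 and LAMA3, but also 4 macrophage or neutrophil markers (IL1B, C1QA, HLA-DRA and ARG1), so it is called by its number. Sub-clusters 1 and 2, the latter led by PPP1R3C and UPK1B, had far less F3, with 18.2 to 77.7 CPM and 7.92 to 134 CPM over the 4 libraries. Sub-cluster 3, led by DEFB113 and LMO7, had 175 CPM in Normal_1 and 2275 CPM in the 10 cells of Normal_2, against 111 and 296 CPM in the injured libraries. The groups overlapped there and in sub-cluster 1, and did not overlap in sub-clusters 0, 2, 4 and 5, the last a group of shallow cells (median 1099 UMIs). Normal_2 gave only 12, 10 and 15 cells of sub-clusters 2, 4 and 5. In the whole epithelial-like class 15.1% of genes with at least 50 UMIs were lower in both injured libraries. The share within sub-clusters was not computed.

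PLAU did not separate normal from injured libraries in the sub-clusters where F3 did so most widely. In sub-cluster 0 it was 718 and 1130.2 CPM in normal and 1026 and 497 CPM in injured libraries, so that Injury_1 lay between the normal libraries and Injury_2 below both. In sub-cluster 4 it was 509 and 604 CPM in normal and 1032 and 343 CPM in injured libraries. Sub-cluster 3 had 381 and 1414 CPM against 839 and 372 CPM. Sub-cluster 2, the one with the highest uroplakin score, had the lowest PLAU of sub-clusters 0 to 5 in each library, at 68.6 to 158 CPM. Sub-clusters 5 to 9 held 133 cells or fewer each, and sub-clusters 7 and 8 were led by fibroblast and endothelial genes.

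**Figure D4:**
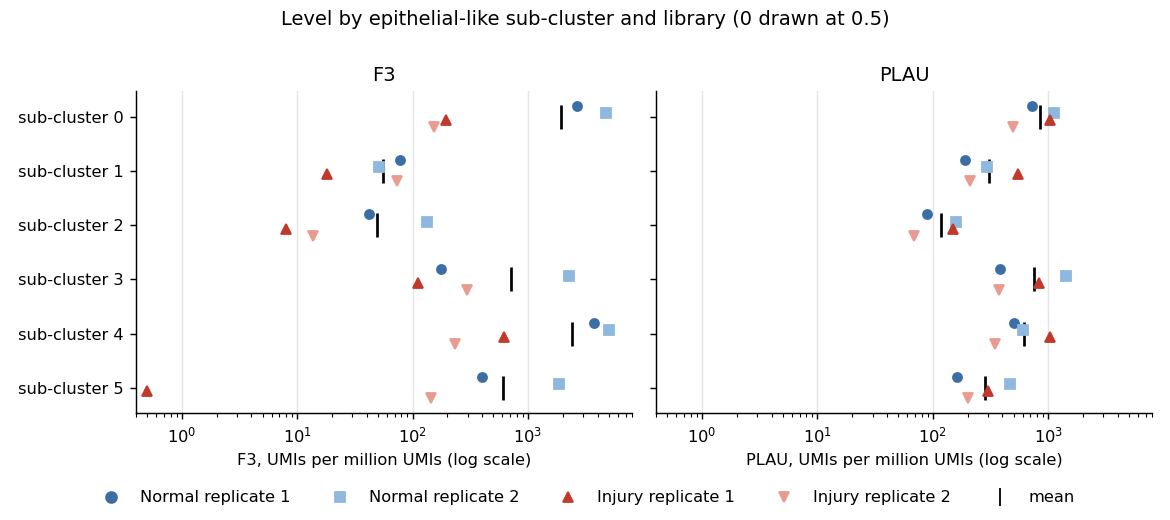
Points give the level of F3 (left) and PLAU (right) in epithelial-like sub-clusters 0 to 5 of each library with at least 10 cells, in CPM on a log scale, and black bars the means. In sub-clusters 0 and 4 the normal F3 points (2634 to 4990.4 CPM) stand far from the injured points (152 to 613 CPM), while normal and injured PLAU points are mixed.

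Both genes were found in the same epithelial cells somewhat more often than their separate shares would give. At 1000 UMIs per cell 16.7% and 35.6% of normal epithelial-like cells had both, where the product of the 2 shares was 11.2% and 28.6%. In injured libraries 4.30% and 3.81% had both against products of 2.83% and 2.66%. Within sub-cluster 0 of the normal libraries the excess was small, with 32.7% and 53.1% against 29.8% and 50.6%. Epithelial-like cells with an F3 UMI had a PLAU level of 502.5 and 935 CPM in normal and 905 and 350.4 CPM in injured libraries. The cells without one had 159, 202, 513 and 235 CPM, a lower value in all 4 libraries. The deeper a cell, the more often it shows an F3 UMI, and these last groups were not matched for depth.

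Values of other cell types in the epithelial-like class are given beside its F3 result. All 5 fibroblast markers in the files were present in each library, with summed levels of 148 and 1849 CPM in normal and 1096 and 1595 CPM in injured epithelial-like cells. The 7 macrophage markers summed to 9.10 and 60.5 CPM in normal and 94.1 and 26.9 CPM in injured libraries, with C1QA and C1QB at 0 in Normal_1 and C1QB at 0 in Injury_2. The 4 neutrophil markers, all present, summed to 32.8 and 69.1 CPM in normal and 136 and 138 CPM in injured libraries. The 12 dissociation and immediate early genes in the files, of 24 listed, were all present and summed to 7354 and 11769 CPM in normal and 14373 and 16752 CPM in injured libraries. The median share of mitochondrial UMIs was 10.2% and 10.7% in normal and 8.14% and 9.24% in injured epithelial-like cells. The 6 basal markers summed to 744 and 834 CPM in normal and 296 and 400.0 CPM in injured libraries, and the 2 uroplakins measured in the umbrella list to 53.7 and 14.8 CPM against 275 and 87.6 CPM. The part of neutrophil, stress, mitochondrial and layer genes in the F3 difference was not tested beyond the groups by KRT5 and uroplakin above, and the F3 fold change without the 5% of cells with the highest doublet score was -4.33 on the log2 scale.

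Of fibroblast-like and endothelial-like cells, the former had the higher F3 and the latter the higher PLAU. Neutrophil-like F3 is described further below. Among the 5 fibroblast-like clusters F3 was highest in 1 led by MFAP5, ITGBL1, PCOLCE2 and SFRP2, with 235 and 770.3 CPM in normal and 373 and 332 CPM in injured libraries, and in 1 led by PTPRQ and HHIP, with 303 and 262 CPM in normal and 507 and 395 CPM in injured libraries. The PTPRQ and HHIP cluster was also the fibroblast-like cluster with the most PLAU, at 145 and 174 CPM in normal and 455 and 280.3 CPM in injured libraries. In the other 4 clusters PLAU lay between 4.44 and 104 CPM. PLAU was higher in both injured than in both normal libraries in 5 of 5 fibroblast-like clusters, and none of the 5 was called. Among all genes with at least 50 UMIs in these clusters, 14.8% to 26.6% were likewise higher in both injured libraries. Log2 fold changes in edgeR were 0.82, 1.73, 1.01, 1.12 and 1.58 for the clusters led by EREG, COCH, MFAP5, PTPRQ and LVRN, with adjusted p of 0.552, 0.281, 0.649, 0.427 and 0.307. Of all genes tested in these clusters 0.183%, 0.752%, 0.0896%, 0.187% and 0% were called. The 5 clusters come from the same 4 rabbits and are no replicates of each other. F3 did not overlap between the groups in 2 of the 5.

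Endothelial-like PLAU was highest in a cluster led by ATP2A3, BMX and NOS3, genes of arterial endothelium, with 582 and 445 CPM in normal and 608 and 749 CPM in injured libraries. The KDR and ESM1 cluster followed with 325 and 278 CPM against 333 and 624 CPM, and the cluster led by SELP and SELE had 118 and 89.3 CPM against 183 and 254 CPM. Injured values were above normal values in all 4 endothelial-like clusters with at least 20 cells in each library, and none was called, with 0 to 0.18% of all genes called there and 20.04% to 27.14% of genes with at least 50 UMIs likewise higher in both injured libraries. In smooth muscle and pericyte-like clusters PLAU overlapped between the groups in 2 of 2, and in macrophage-like clusters in 1 of 2. The share of all genes without overlap was not computed for these clusters. Cells led by CCL21, MMRN1, PROX1 and LYVE1, genes of lymphatic endothelium, were 28 and 52 cells in the injured libraries and had PLAU of only 12.4 and 3.55 CPM. Their F3 was 261 and 88.8 CPM, above the 6.09 to 63.2 CPM of the 4 other clusters in the same libraries. In the ATP2A3 and BMX cluster F3 was 2.67 to 12.3 CPM, no higher than the upper value of T cell-like cells (17.7 CPM). Cells led by IBSP and RGS5 varied little in both genes, with 88.3 to 118 CPM of F3 and 237 to 319 CPM of PLAU.

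**Figure D5:**
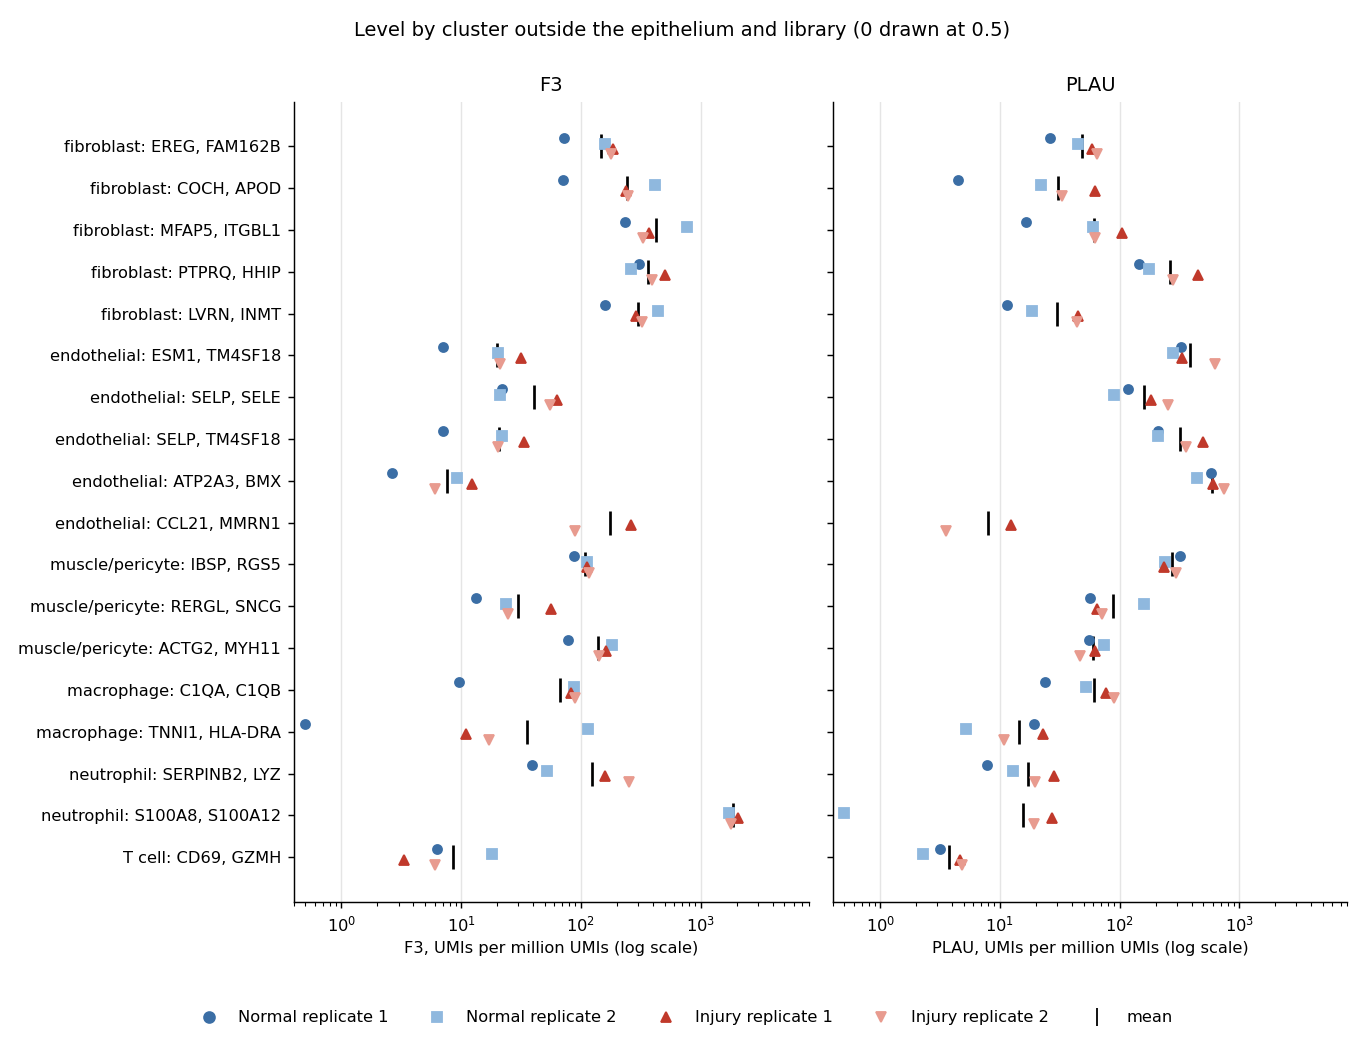
Each point is the level of F3 (left) or PLAU (right) in 1 cluster outside the epithelium of 1 library with at least 10 cells, in CPM on a log scale, and each cluster is named by its class and its first 2 leading genes. F3 of the S100A8 and S100A12 cluster lies at 1722 to 2041 CPM, above every other row drawn, and PLAU is highest in the ATP2A3 and BMX cluster at 445 to 749 CPM.

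The neutrophil-like class held 2 clusters that differed widely in F3. The first, led by SERPINB2, LYZ and S100A8, had 110 and 88 cells in the injured libraries and 20 and 15 in the normal ones, and its F3 was 158 and 251 CPM in injured and 39.3 and 51.9 CPM in normal libraries. LYZ led it unevenly, with 0 UMIs in Injury_1 and 10 in Normal_2, against 1301 in Injury_2 and 524 in Normal_1. The second, led by S100A8, S100A12 and S100A9, genes of neutrophil granules and cytosol, had 143 and 50 cells in the injured libraries and 5 and 15 in the normal ones. These were small libraries per cell, with medians of 669 to 911 UMIs. F3 was 2041 and 1790.0 CPM in the injured libraries and 1722 CPM in Normal_2, and the 5 cells of Normal_1 had 12 F3 UMIs among 4543. An F3 UMI was seen in 84 of 143, 30 of 50, 3 of 5 and 8 of 15 cells, or 58.7% (Wilson 95% interval 50.5 to 66.5) and 60.0% (46.2 to 72.4) in the injured libraries. Intervals cover counting error only.

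Other cells of that size were set beside these small cells. In cells of 500 to 999 UMIs F3 was found in 53.6% of 125, 53.8% of 39 and 53.8% of 13 cells of the S100A12 cluster in Injury_1, Injury_2 and Normal_2. Among unnamed cells of the same depth it was found in 8.11% of 37, 4.65% of 43 and 1.33% of 75 cells. In Normal_1 it was found in 1 of 3 cells of the cluster and in 7.27% of 55 unnamed cells. Epithelial-like cells of that depth had an F3 UMI in 0 of 17, 1 of 8, 4 of 25 and 6 of 9 cells of Injury_1, Injury_2, Normal_1 and Normal_2, and fibroblast-like cells in 3 of 10 cells of Normal_2. PLAU was found in 1.60%, 2.56% and 0% of those S100A12 cells and in 13.5%, 16.3% and 9.33% of the unnamed ones. The keratins KRT15 and KRT18 gave 34 and 13 of the 109262 UMIs of the S100A12 cluster in Injury_1, 1 and 1 of 51956 in Injury_2 and 1 and 5 of 4543 in Normal_1, where F3 gave 223, 93 and 12. The fibroblast markers COL1A1 and DCN gave 34 and 80 UMIs in Injury_1 and 46 and 45 in Injury_2. The part of depth and of free RNA in the F3 of this cluster was not tested. No test between the groups was made for this cluster, since the normal libraries held under 20 of its cells. It also sets the class level: with at least 1000 UMIs and 500 genes per cell, the mean F3 of neutrophil-like cells was 127 CPM in place of 249.8 CPM.

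Of the gene lists around the pair, F3 itself was the only gene called in the epithelial-like class. The files held 14 of 25 genes of coagulation and its control by symbol, 7 of 16 genes of plasminogen activation, 5 of 7 urokinase substrates and epithelial serine proteases, and 0 of 4 protease-activated receptors, which were not analysed here. In epithelial-like cells 5 coagulation genes were tested, F3 among them. F3 was the 1 that fell, and 0 rose, where 1.04% of all genes tested were called lower. The median log2 fold change, F3 included, was -0.76 beside 0.00 over all genes. The other 4 ranged from -2.37 (PROS1) to 0.17 (TFPI), and none of them was called. There 3 plasminogen genes and 4 protease genes were tested and 0 were called, with medians of 0.94 and 0.30. In the other 5 classes in which F3 or PLAU was tested 0 list genes were called. The plasminogen list had medians of 0.80 in fibroblast-like, 0.54 in endothelial-like, 0.17 in smooth muscle and pericyte-like, 1.08 in macrophage-like and -0.17 in neutrophil-like cells, over 3 or 4 genes each.

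A few direct partners are named here after their values were seen. TFPI, the inhibitor of the tissue factor complex, was at 119 ± 29.0 CPM in epithelial-like, 239 ± 46.2 CPM in fibroblast-like and 210.5 ± 12.5 CPM in smooth muscle and pericyte-like cells (SD, n = 4 each), and at 13.8 ± 8.84 CPM in neutrophil-like cells. In epithelial-like cells it was 92.2 and 111 CPM in normal and 113 and 160.2 CPM in injured libraries (log2 fold change 0.17, edgeR adjusted p = 0.803), where F3 fell. SERPINB2, an inhibitor of urokinase, was at 2863 ± 1979 CPM in neutrophil-like cells and at 6431 ± 3816 CPM in mast cell-like cells (n = 4 and 3), where PLAU was low or varied. The neutrophil-like cluster led by SERPINB2 had 1603 to 5869 CPM of it. In the S100A12 cluster SERPINB2 gave 11 of 109262 UMIs in Injury_1 and 0 of 51956 in Injury_2. It gave 17 of 4543 in Normal_1 and 0 of 11616 in Normal_2. In macrophage-like cells SERPINB2 was 4.82 and 4.13 CPM in normal and 61.5 and 164 CPM in injured libraries (log2 fold change 4.55, adjusted p = 0.109). SERPINE2, another inhibitor of urokinase, was highest in the smooth muscle and pericyte-like class at 335 ± 66.8 CPM (SD, n = 4). ST14, the membrane protease matriptase, was 72.4 and 150.0 CPM in normal and 343 and 217 CPM in injured epithelial-like cells (log2 fold change 1.02, adjusted p = 0.282).

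The genes most like each member were sought by Pearson's correlation of log2(CPM + 10), which describes these samples and carries no test. Over 35 class sums of 10 classes, among 4310 genes, the 5 most like F3 were SCARB2 (r = 0.77), MMP1 (0.74), EGFR (0.71), FOSL1 (0.71) and GPRC5A (0.70). For PLAU they were SLC38A2 (0.90), ZFAND5 (0.88), KTN1 (0.84), YTHDF3 (0.84) and KLF5 (0.83). F3 and PLAU correlated at r = 0.40, and PLAU ranked 254 for F3. Over 31 sums of epithelial-like sub-clusters, among 3953 genes, LAMB3 (r = 0.89), SIAH2 (0.86), TXNRD1 (0.84), NMU (0.83) and CAPN2 (0.83) were most like F3, and IL1A (0.77), UAP1 (0.76), MBD2 (0.75), MMP1 (0.74) and FRMD4B (0.73) were most like PLAU. F3 and PLAU correlated at r = 0.56 there, a value that the choice of the pair as leading genes of 1 epithelial group bears on. Sums of 1 library share its depth, and sums of 1 class share its cell type, so these points are not independent.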

How the data were processed

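Per the labels, the authors sequenced 10x Genomics 3′ (v3) libraries and deposited UMI counts per gene and cell barcode, made with Cell Ranger 6.0.1 per the file headers. The genome release is not given in the sources used here, so no coordinates are printed. From the deposited counts, barcodes under 500 UMIs, under 200 genes or over 15% mitochondrial UMIs were removed. They were integrated across libraries with Seurat 5.3.0 (2000 variable genes without F3 and PLAU, 30 components, resolution 0.8). Clusters were named by fixed markers, those led by other markers stayed unnamed, and doublets were scored with Scrublet (scanpy 1.11.5) and not removed. Class names were rebuilt here and need not match the study's. UMIs were summed per library and class and, where each library had at least 20 cells, tested with edgeR 4.0.16 (quasi-likelihood, filterByExpr, TMM, Benjamini-Hochberg, threshold 0.05), after a test on simulated data. Alternatives were DESeq2 1.42.0, other scalings, filters and clusterings, a replicate block and leaving out each library. Levels needed at least 10 cells. The members and gene lists were chosen with earlier results of these data known. Genes named were the members, called list genes and the 5 most similar profiles, and others are marked.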

Additional observations from a re-analysis of the deposited data

Results flagged for a closer look

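The injury effect on F3 differed between epithelial-like cells and each of the 3 large stromal classes by a test of the difference itself. On the log2 scale the effect in epithelial-like cells minus that in fibroblast-like cells was -4.35, minus that in endothelial-like cells -5.35, and minus that in smooth muscle and pericyte-like cells -4.52. All 3 differences share the same epithelial-like sums. The mix of KRT5 and uroplakin cells in these sums differed between the groups, and its part in the differences was not tested. Groups of 2 libraries were too small for a check of single outlying libraries.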

How the results depend on the processing

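F3 in epithelial-like cells was called lower under every alternative run, with log2 fold changes from -4.60 to -3.48 when 1 library was left out and -4.05 with the replicate block (adjusted p = 0.0401). The labels give only numbers to the rabbits, and deviations of same-numbered samples correlated at 0.093 in epithelial-like, 0.194 in fibroblast-like and -0.109 in neutrophil-like cells. With the block edgeR also called F3 lower in KRT5 cells (-3.54, adjusted p = 0.0196) and uroplakin cells (-2.77, adjusted p = 0.0317), and called 58 genes in epithelial-like, 78 in fibroblast-like, 90 in endothelial-like, 65 in smooth muscle and pericyte-like and 135 in macrophage-like cells. Crossing the numbers, chosen after seeing the data, called 0 genes in neutrophil-like cells. F3 in KRT5 cells was also called with DESeq2 (-3.33), without a filter on low counts (-3.36) and without the 5% of cells with the highest doublet score (-3.50). Without that filter F3 in uroplakin cells (-3.00), PLAU in macrophage-like cells (1.26, adjusted p = 0.0126) and the PLAU difference between epithelial-like and fibroblast-like cells (-1.28) were called too. The 10% mitochondrial limit left too few cells in the KRT5 and uroplakin groups. Numbers of called genes varied widely, in epithelial-like cells from 50 to 967.

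Directions turned only for values that were not called. F3 was at -0.052 and -0.56 in the COCH and MFAP5 fibroblast-like clusters taken alone, and at -0.57 in smooth muscle and pericyte-like cells without integration. PLAU was at -0.74 and -0.046 in the RERGL and RGS5 clusters. Macrophage-like F3 was at -0.074 with a 10% mitochondrial limit, -0.046 with both genes among the clustering genes and -2.13 in the TNNI1 cluster, and its share of cells differed by 0.716 percentage points without thinning. PLAU in cells with neither marker was at 0.022 with the 10% limit. These single-cluster fits were added after seeing the data.

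Leaving out 1 library moved the log2 fold change of PLAU in epithelial-like cells from -1.28 to 0.091. F3 ranged from -0.25 to 0.95 in fibroblast-like, from 0.011 to 1.01 in smooth muscle and pericyte-like and from -0.93 to 4.20 in macrophage-like cells. In KRT5 cells, cells with neither marker and uroplakin cells F3 ranged from -4.44 to -2.72, -4.17 to -2.85 and -3.82 to -1.47, and PLAU from -0.86 to 0.10, -0.85 to 0.74 and -1.49 to 0.75. The PLAU difference between classes ranged from -1.60 to -0.97 against fibroblast-like and from -1.31 to -0.069 against smooth muscle and pericyte-like cells. Thinned shares ranged from -15.6 to 2.03 (PLAU, epithelial-like), -1.53 to 8.68 (F3, fibroblast-like), -3.71 to 3.09 (F3, macrophage-like) and -0.144 to 1.23 percentage points (PLAU, neutrophil-like). List genes called numbered 1 to 3 in epithelial-like, 0 to 2 in smooth muscle and pericyte-like, 1 to 2 in macrophage-like and 0 to 2 in T cell-like cells. Without the filter on low counts they were 4 in epithelial-like, 1 in fibroblast-like, 5 in smooth muscle and pericyte-like, 4 in macrophage-like and 1 in T cell-like cells. With DESeq2, and with the block, 1 was called in smooth muscle and pericyte-like and 1 in macrophage-like cells.

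Mean F3 of neutrophil-like cells depended on which cluster carried the name. It was 127 CPM with deeper cells only, 1851 CPM at resolution 0.4, 1854 CPM without integration and 847 CPM as a mean over cells. Mean F3 was 8.86 CPM in B cell-like cells without high doublet scores and 10.2 CPM over single cells, 74.3 CPM in glial-like cells at resolution 0.4 and also with both genes among the clustering genes, and 119 CPM in smooth muscle and pericyte-like cells without integration. Mean PLAU was 93.5 CPM in glial-like and 215 CPM in smooth muscle and pericyte-like cells at the 10% limit, and in the latter 191 CPM with both genes among the clustering genes, 193 CPM at resolution 0.4 and 189 CPM over single cells. The causes were not tested. The 2 samples a group, and the few epithelial-like cells of Normal_2, limit the precision.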
